A study of Saccharomyces cerevisiae with 12 samples.

Results

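The genes described here are 6 hypoxic genes of *S. cerevisiae*, *ANB1* (YJR047C), *HEM13* (YDR044W), *CYC7* (YEL039C), *COX5B* (YIL111W), *AAC3* (YBR085W) and *HMG2* (YLR450W), and the genes of 2 repressors that act on hypoxic genes, *ROX1* (YPR065W) and *MOT3* (YMR070W). They were picked as a list of ORF names, with earlier results of these data known, and all 8 of them had a value on every array, among 5769 genes measured. They lie on 8 different chromosomes: *AAC3* on II, *HEM13* on IV, *CYC7* on V, *COX5B* on IX, *ANB1* on X, *HMG2* on XII, *MOT3* on XIII and *ROX1* on XVI.

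Expression was profiled on one-color NimbleGen arrays in WT yeast and in a strain without Tup1, with and without rapamycin, an inhibitor of the TOR kinases. WT was BY4741, a laboratory strain of genotype MATa *his3Δ1 leu2Δ0 met15Δ0 ura3Δ0*, and *tup1Δ* was the *TUP1* deletion strain of the yeast deletion collection, in the same background. Cells were in mid-log phase in YPD with shaking at 30°C and received 100 nM rapamycin or 0.1% DMSO, its solvent, for 30 min. This gave 4 groups: WT in DMSO with 4 arrays, WT in rapamycin with 4, *tup1Δ* in DMSO with 2 and *tup1Δ* in rapamycin with 2. The treatments were applied to portions of each of 4 WT cultures, and a replicate number of WT therefore stands for 1 culture; the *tup1Δ* replicates came from 2 cultures. Oxygen was not varied in any group, and *tup1Δ* is a single strain that lacks Tup1 throughout growth.

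In yeast, oxygen is sensed largely through heme, whose synthesis needs oxygen. With oxygen present, heme activates the transcription factor Hap1, which turns on *ROX1*, and the Rox1 protein binds upstream of hypoxic genes and recruits the Cyc8-Tup1 co-repressor complex. Mot3 is a zinc finger protein that strengthens this repression at some of the genes and also works through Cyc8-Tup1. When oxygen falls, Rox1 is lost and hypoxic genes are transcribed. Several of them encode a second version of a protein that has an aerobic partner. The scheme of heme, Hap1 and Rox1 is a general one, and Hap1 activity was not measured in the strain used here.

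The arrays were checked against the genotypes first. *TUP1* (YCR084C) had a mean log2 value of 13.93 in WT in DMSO and 7.97 in *tup1Δ* in DMSO, and of 13.79 and 8.09 in rapamycin. *URA3*, *LEU2* and *MET17* (the gene of the *met15Δ0* allele), which are deleted in BY4741, had group means from 7.88 to 8.03 in all 4 groups. The lowest value on any array was 7.85 and the highest was 15.52, so these means mark the low end of the measurement. Among the WT arrays, replicates 1 and 2 were alike and replicates 3 and 4 were alike: the differences between 2 arrays had an SD over all genes of 0.110 in DMSO and 0.214 in rapamycin for the first pair, 0.0647 and 0.0643 for the other, and 0.243 to 0.287 across pairs. The labels give no batch, and whether this split reflects one was not tested.

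Differences between groups were tested with limma on all 12 arrays, and p-values were adjusted by Benjamini-Hochberg over the 5769 genes. A gene is said to have risen or fallen when its adjusted p was below 0.05, and is called when its log2 fold change was also at least 1 in size. Values are log2 expression, means are given ± SD, and SE is the standard error of a log2 fold change. Single genes were also compared with a two-sided exact permutation test, whose smallest possible p is 0.0286 for 4 arrays against 4, 0.0667 for 2 against 4 and 0.333 for 2 against 2. Only the first of these designs can reach 0.05. The strain comparison in DMSO and the rapamycin response of WT share the WT DMSO arrays, so their values are set side by side and are not independent.

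**Figure D1:**
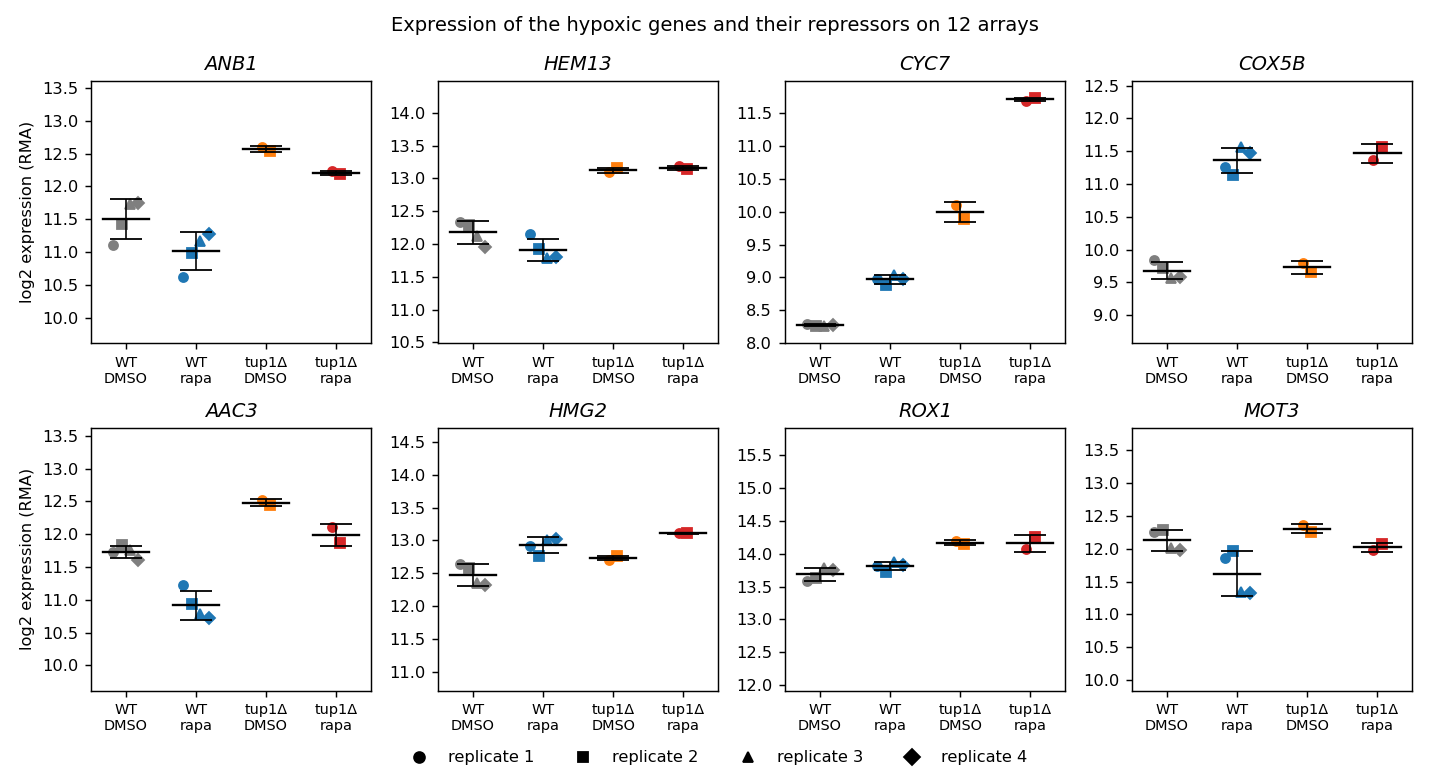
Log2 expression of the 8 genes on the 12 arrays, with each panel spanning 4 log2 units. Points are arrays, with the shape giving the replicate number, and black lines are group means with bars of ± 1 SD. *CYC7* stands at 4 separate levels, from 8.27 in WT in DMSO to 11.71 in *tup1Δ* in rapamycin. The *COX5B* values of the strains overlap within each treatment.

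Which of these genes differ in level in the strain without Tup1 was asked by comparing *tup1Δ* with WT in DMSO. *CYC7*, *ANB1*, *HEM13* and *AAC3* rose in *tup1Δ*, by 3.31-fold, 2.09-fold, 1.93-fold and 1.68-fold, and *ROX1* rose by 1.40-fold. *COX5B*, *HMG2* and *MOT3* did not pass the test. With the fold threshold, 2 of the 8 genes were called higher (*ANB1* and *CYC7*), where 4.13% of all genes were; without it, 5 of 8 rose, where 15.3% of all genes did. No member fell, where 27.3% of all genes did. The median log2 fold change was 0.85 over the 6 hypoxic genes and -0.08 over all genes.

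*CYC7* encodes the hypoxic isoform of cytochrome c, the electron carrier between respiratory complexes III and IV. It had log2 values of 8.28, 8.27, 8.26 and 8.28 in WT in DMSO, and 10.11 and 9.89 in *tup1Δ*. The WT values were only a little above those of the deleted genes, while both *tup1Δ* values stood far above it. This was a log2 fold change of 1.73 (SE 0.07, adjusted p = 4.50e-09 from limma), and the exact permutation p was 0.0667, the smallest that the design allows. Since no detection flags were used here, the WT level may be a limit, and the fold is then a lower estimate. Of the 5769 genes, *CYC7* had place 99 from the highest by log2 fold change.

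*ANB1* encodes the hypoxic form of the translation factor eIF5A. In WT in DMSO its values were 11.11, 11.43, 11.73 and 11.74, and in *tup1Δ* they were 12.60 and 12.54. Replicates 3 and 4 of WT stood above replicates 1 and 2, by 0.47 on average, and every *tup1Δ* value was above every WT value. The log2 fold change was 1.06 (SE 0.20, adjusted p = 0.00131 from limma). It was 0.93 without WT DMSO replicate 1 and 0.83 against WT replicates 3 and 4 alone, so that *ANB1* was then not called although it still rose.

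*HEM13* encodes coproporphyrinogen III oxidase, a heme synthesis enzyme that uses oxygen as a substrate. It stood at 12.33, 12.30, 12.12 and 11.96 in WT in DMSO and at 13.09 and 13.15 in *tup1Δ*. The groups did not overlap, and the gap between them was wider than the spread of the 4 WT arrays. On the log2 scale it rose by 0.95 (SE 0.12, adjusted p = 9.25e-05 from limma), just under the fold threshold. It reached the threshold, at 1.00, when the arrays were shifted so that the median gene was equal between groups, and 1.08 against WT replicates 3 and 4 alone.

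*AAC3* encodes the hypoxic isoform of the mitochondrial ADP/ATP carrier. Its values in DMSO were 11.73, 11.83, 11.76 and 11.61 in WT and 12.52 and 12.45 in *tup1Δ*, with no overlap. This gave a log2 fold change of 0.75 (SE 0.13, adjusted p = 0.000775 from limma).

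*COX5B* and *HMG2* differed little between the strains. *COX5B*, the hypoxic isoform of subunit V of cytochrome c oxidase, had values of 9.85, 9.72, 9.57 and 9.58 in WT and 9.80 and 9.66 in *tup1Δ*. Both *tup1Δ* values fell inside the WT range, and the log2 fold change of 0.05 had a 95% confidence interval from -0.22 to 0.32 (adjusted p = 0.783 from limma). An increase of the size seen for *AAC3* lies outside this interval. *HMG2* encodes an isozyme of HMG-CoA reductase, the rate-limiting enzyme of sterol synthesis. Its values were 12.65, 12.57, 12.34 and 12.32 in WT and 12.71 and 12.76 in *tup1Δ*, which did not overlap but were close. For *HMG2* the log2 fold change was 0.26 (SE 0.10, 95% confidence interval 0.04 to 0.49, adjusted p = 0.0610 from limma). The adjusted p was 0.0226 without WT DMSO replicate 1 and 0.0269 once the median gene was set equal between groups, and against WT replicates 3 and 4 alone the log2 fold change was 0.40 (adjusted p = 2.42e-05). Whether *HMG2* passed the adjusted p therefore rested on these choices, and it did not reach the fold threshold in any of them.

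Neither repressor gene fell without Tup1. *ROX1* had values of 13.58, 13.63, 13.78 and 13.76 in WT and 14.20 and 14.14 in *tup1Δ*. All WT values were below both *tup1Δ* values, and the log2 fold change was 0.48 (SE 0.08, adjusted p = 0.000444 from limma). Rox1 is known to repress its own gene. *MOT3* had values of 12.25, 12.28, 12.01 and 11.99 in WT and 12.36 and 12.26 in *tup1Δ*. The groups overlapped, with WT replicates 3 and 4 below the rest. For *MOT3* the log2 fold change was 0.18 (95% confidence interval -0.21 to 0.57, adjusted p = 0.457 from limma), and it was 0.31 (adjusted p = 0.00042) against WT replicates 3 and 4 alone.

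In rapamycin, the same strain comparison gave larger differences for the genes that had risen in DMSO, apart from *ROX1*. *CYC7* was higher in *tup1Δ* by 6.69-fold, *HEM13* by 2.38-fold, *ANB1* by 2.29-fold and *AAC3* by 2.10-fold. These 4 of the 8 genes were called higher, where 4.52% of all genes were. Without the fold threshold 5 of 8 rose, with *ROX1* added, where 16.2% of all genes did, and none fell, where 27.5% of all genes did. The median log2 fold change was 1.14 over the 6 hypoxic genes and -0.09 over all genes. Whether the strain difference itself differed between the treatments was tested below, and only *CYC7* passed.

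*CYC7* had values of 8.97, 8.88, 9.04 and 8.98 in WT in rapamycin, and 11.69 and 11.73 in *tup1Δ* in rapamycin. The gap between the strains was many times the spread within either group, and the log2 fold change was 2.74 (SE 0.07, adjusted p = 6.85e-11 from limma), with place 37 from the highest of all genes. *HEM13* had values of 12.15, 11.92, 11.78 and 11.80 in WT against 13.19 and 13.14 in *tup1Δ*, with no overlap. It rose by 1.25 on the log2 scale (SE 0.12, adjusted p = 9.13e-06 from limma).

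*ANB1* had values of 10.62, 10.98, 11.17 and 11.28 in WT in rapamycin and 12.23 and 12.19 in *tup1Δ*. As in DMSO, WT replicate 1 was the lowest, and no WT value came near the *tup1Δ* values. Its log2 fold change was 1.20 (SE 0.20, adjusted p = 0.00062 from limma), and 0.98 against WT replicates 3 and 4 alone. *AAC3* had values of 11.22, 10.94, 10.79 and 10.72 in WT and 12.11 and 11.87 in *tup1Δ*. WT replicate 1 was the highest of its group and still below *tup1Δ*. *AAC3* had a log2 fold change of 1.07 (SE 0.13, adjusted p = 5.67e-05 from limma), which was under the fold threshold, at 0.95, without *tup1Δ* rapamycin replicate 1, and at 0.91 against WT replicates 1 and 2 alone.

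The other members differed less between the strains in rapamycin. *COX5B* had values of 11.26, 11.14, 11.56 and 11.48 in WT and 11.37 and 11.57 in *tup1Δ*, which overlapped. Its log2 fold change was 0.11 (95% confidence interval -0.17 to 0.38, adjusted p = 0.510 from limma). *HMG2* had values of 12.91, 12.76, 13.01 and 13.02 in WT and 13.11 on both *tup1Δ* arrays, and its log2 fold change of 0.18 did not pass (adjusted p = 0.173 from limma). Against WT replicates 1 and 2 alone, both genes passed, *COX5B* at 0.27 (adjusted p = 0.0452) and *HMG2* at 0.27 (adjusted p = 0.0122). *ROX1* had values of 13.81, 13.72, 13.88 and 13.83 in WT and 14.07 and 14.25 in *tup1Δ*. It rose by 0.35 (SE 0.08, adjusted p = 0.00343 from limma), and did not pass without *tup1Δ* rapamycin replicate 2 (adjusted p = 0.0535). *MOT3* had values of 11.87, 11.96, 11.34 and 11.32 in WT and 11.98 and 12.07 in *tup1Δ*. WT replicate 2 lay only just below the *tup1Δ* values, and replicates 3 and 4 lay well below them. Its log2 fold change was 0.40 (SE 0.18, adjusted p = 0.0873 from limma). It passed without WT rapamycin replicate 1 (adjusted p = 0.0486) or replicate 2 (adjusted p = 0.025), and was 0.70 (adjusted p = 1.45e-06) against WT replicates 3 and 4 alone. The last of these fits leaves out the spread between the WT pairs.

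**Figure D2:**
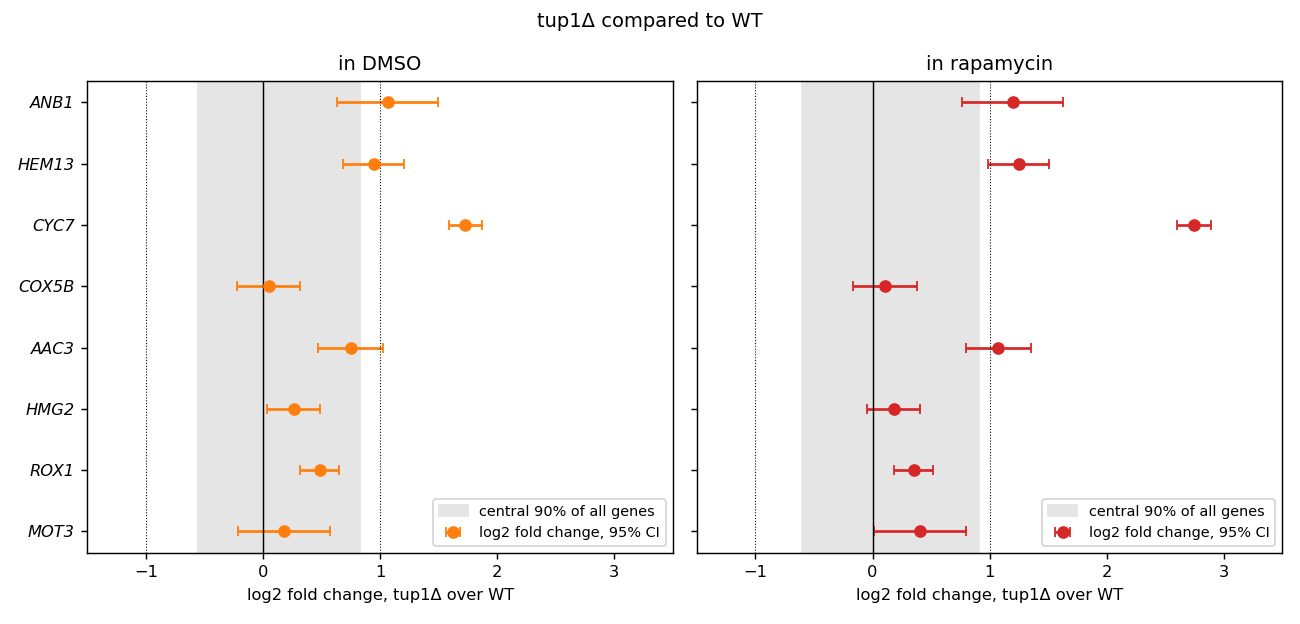
Log2 fold change of *tup1Δ* over WT (x axis) for each of the 8 genes (y axis) in DMSO and in rapamycin, with 95% confidence intervals from limma. The grey band holds the central 90% of all genes and dotted lines mark the fold threshold; *CYC7* is at 1.73 in DMSO and 2.74 in rapamycin, while the intervals of *COX5B* span 0 in both.

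The response to rapamycin was examined next, within each strain. In WT the genes did not move together: *COX5B* rose by 3.20-fold, *CYC7* by 1.62-fold and *HMG2* by 1.37-fold, while *AAC3* fell by 1.76-fold, *MOT3* by 1.42-fold, and *ANB1* and *HEM13* by smaller amounts. *COX5B* alone was called higher, 1 of 8 where 5.41% of all genes were. Without the fold threshold, 3 of 8 rose and 4 of 8 fell, where 37.8% and 28.4% of all genes did, so a rise or a fall in rapamycin is common on these arrays. The median log2 fold change was -0.07 over the 8 genes and 0.06 over all genes.

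The WT cultures allow the response to be read within each culture, as the rapamycin array minus the DMSO array of the same number. *COX5B* rose by 1.42, 1.42, 1.99 and 1.89 in cultures 1 to 4, so that the lowest rapamycin value was above the highest DMSO value by more than 1 log2 unit. Its log2 fold change was 1.68 (SE 0.10, adjusted p = 6.07e-08 from limma, exact permutation p = 0.0286), with place 93 from the highest of all genes. *CYC7* rose by 0.69, 0.62, 0.78 and 0.70, an even response with no overlap between the treatments. Its log2 fold change was 0.70 (SE 0.05, adjusted p = 4.76e-07 from limma). *HMG2* rose by 0.27, 0.19, 0.67 and 0.70, less in cultures 1 and 2 than in cultures 3 and 4, with a log2 fold change of 0.46 (SE 0.08, adjusted p = 0.000533 from limma).

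*AAC3* fell by 0.51, 0.89, 0.97 and 0.89 in the 4 WT cultures. The treatments did not overlap, and the log2 fold change was -0.82 (SE 0.10, adjusted p = 3.04e-05 from limma). *MOT3* fell by 0.39, 0.32, 0.67 and 0.66, again with a smaller change in cultures 1 and 2, and its log2 fold change was -0.51 (SE 0.14, adjusted p = 0.00907 from limma). *ANB1* fell by 0.50, 0.45, 0.57 and 0.46 within cultures, although its treatments overlapped, with the cultures at different levels. Over all arrays its log2 fold change was -0.49 (SE 0.16, adjusted p = 0.0172 from limma). Without WT DMSO replicate 3 or 4 the adjusted p of *ANB1* was 0.0504 and 0.0506, and with culture as a block it was 1.48e-05. *HEM13* fell by 0.19, 0.38, 0.34 and 0.16, with a log2 fold change of -0.26 (SE 0.10, adjusted p = 0.0308 from limma). It did not pass in 5 of the 8 fits that left out 1 WT array (those without WT DMSO replicate 1 or 2, or WT rapamycin replicate 2, 3 or 4, with a highest adjusted p of 0.0865) and had an adjusted p of 0.00215 with culture as a block. *ROX1* had differences of 0.23, 0.09, 0.10 and 0.07, overlapping treatments and a log2 fold change of 0.12 (95% confidence interval -0.01 to 0.26, adjusted p = 0.102 from limma). For each of the 8 genes the sign was the same in 4 of 4 cultures, for which exchanging the treatments within cultures gives a smallest exact p of 0.125. The same held for each of the aerobic isoforms described below, so it is not particular to these genes. The share of all genes with a common sign was not counted.

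In *tup1Δ* rapamycin raised *COX5B* by 3.33-fold and *CYC7* by 3.28-fold. These were 2 of 8 called higher, where 5.34% of all genes were. Without the fold threshold 3 of 8 rose, with *HMG2* added, where 29.6% of all genes did, and *AAC3* alone fell, where 23.5% of all genes did. The 2 arrays per group make these tests weaker than those in WT.

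Between same-numbered *tup1Δ* arrays, *CYC7* rose by 1.59 and 1.84 and *COX5B* by 1.56 and 1.91. The log2 fold change was 1.71 for *CYC7* (SE 0.08, adjusted p = 1.52e-08 from limma) and 1.74 for *COX5B* (SE 0.14, adjusted p = 1.76e-06 from limma). Both genes stood among the 78 largest rises of all genes in *tup1Δ*. *HMG2* rose by 0.40 and 0.35, with a log2 fold change of 0.38 (SE 0.12, adjusted p = 0.0198 from limma), and did not pass without any 1 of the 4 *tup1Δ* arrays (adjusted p 0.0599 to 0.0934). *AAC3* fell by 0.41 and 0.58, with a log2 fold change of -0.49 (SE 0.15, adjusted p = 0.0146 from limma), and did not pass without *tup1Δ* DMSO replicate 1 (adjusted p = 0.078) or *tup1Δ* rapamycin replicate 2 (adjusted p = 0.124).

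The remaining 4 genes did not pass in *tup1Δ*. The differences between same-numbered arrays were -0.37 and -0.35 for *ANB1*, 0.09 and -0.01 for *HEM13*, -0.13 and 0.11 for *ROX1*, and -0.38 and -0.19 for *MOT3*. *ANB1* and *MOT3* were lower in rapamycin on both pairs, while *HEM13* and *ROX1* had no common sign. With the replicate number as a block, *ANB1* (adjusted p = 0.000867) and *MOT3* (adjusted p = 0.0446) passed as lower, which brings the count to 6 of 8. Both also passed with no block when only the *tup1Δ* arrays were fitted (adjusted p = 0.000917 and 0.0059) and when WT replicates 1 and 2 or replicates 3 and 4 were the only WT arrays in the fit.

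**Figure D3:**
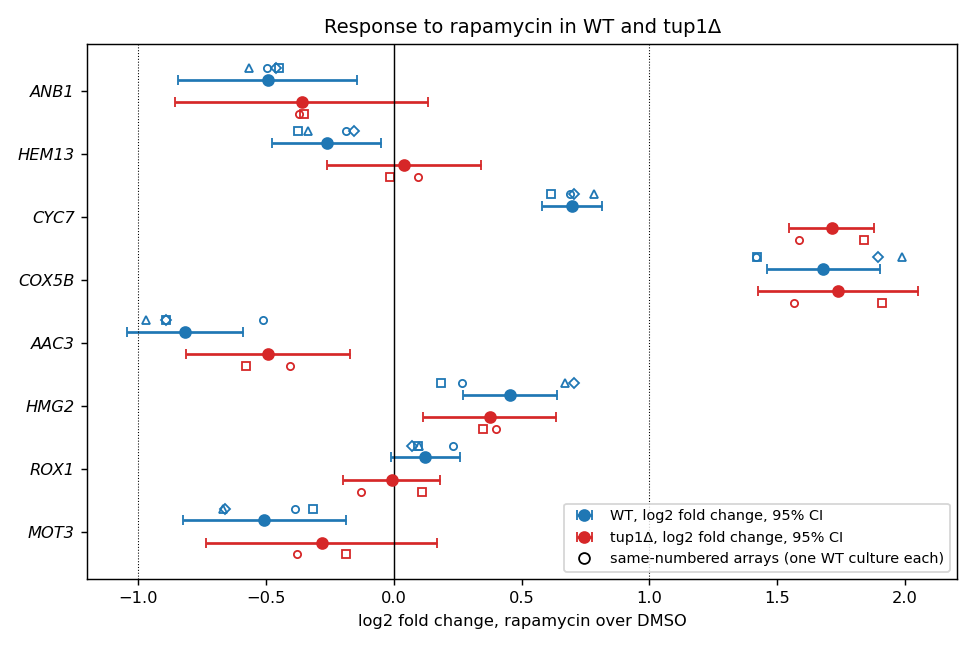
Log2 fold change of rapamycin over DMSO (x axis) for each gene (y axis) in WT and in *tup1Δ*, with 95% confidence intervals from limma as filled points and bars, and the difference between same-numbered arrays as open symbols. *CYC7* is the gene whose intervals are apart in the strains, at 0.70 in WT and 1.71 in *tup1Δ*.

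Whether rapamycin acted differently without Tup1 was tested as the difference between the strains' responses. *CYC7* passed, with a response that was larger in *tup1Δ* by 1.02 on the log2 scale, or 2.02-fold (SE 0.09, 95% confidence interval 0.81 to 1.22, adjusted p = 5.83e-05 from limma). It was 1 of 8 genes called higher by this test, where 0.78% of all genes were, and the same 1 of 8 without the fold threshold, where 3.48% of all genes were. The responses of *CYC7* in the 4 WT cultures, 0.62 to 0.78, lay below both of those in *tup1Δ*. The estimate sits at the fold threshold, and fell below it without WT rapamycin replicate 2 (0.99), *tup1Δ* DMSO replicate 2 (0.91) or *tup1Δ* rapamycin replicate 2 (1.00 when rounded) and against WT replicates 3 and 4 alone (0.97). Its adjusted p was at most 0.00139 over the alternatives in which the gene was tested.

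On the log2 scale the separate effects on *CYC7* of the deletion in DMSO and of rapamycin in WT add to 2.43, or 5.37-fold. The observed difference between *tup1Δ* in rapamycin and WT in DMSO was 3.44, or 10.9-fold. The low WT value in DMSO enters both of these, and its part in the difference was not tested.

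The other 7 genes did not pass. The difference between the strains' responses was 0.06 for *COX5B* (95% confidence interval -0.33 to 0.44, adjusted p = 0.906 from limma) and 0.13 for *ANB1* (95% confidence interval -0.48 to 0.74, adjusted p = 0.858). Values for *AAC3*, *HEM13* and *MOT3* were 0.32, 0.30 and 0.23, and those for *HMG2* and *ROX1* were -0.08 and -0.13. These intervals are wide, and with WT replicates 3 and 4 alone the counts changed: *HEM13*, *AAC3*, *HMG2* and *MOT3* passed the adjusted p without reaching the fold threshold.

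The order of the 4 groups differed from gene to gene. *CYC7* went from 8.27 ± 0.01 in WT in DMSO to 8.97 ± 0.06 in WT in rapamycin, 10.00 ± 0.15 in *tup1Δ* in DMSO and 11.71 ± 0.03 in *tup1Δ* in rapamycin, with every neighbour separate. *COX5B* split by treatment, at 9.68 ± 0.13 and 9.73 ± 0.10 in DMSO and 11.36 ± 0.19 and 11.47 ± 0.14 in rapamycin, and neighbours of the same treatment overlapped. *AAC3* was lowest in WT in rapamycin, at 10.92 ± 0.22, followed by WT in DMSO at 11.73 ± 0.09, *tup1Δ* in rapamycin at 11.99 ± 0.17 and *tup1Δ* in DMSO at 12.48 ± 0.05. No neighbours overlapped, but the middle groups were close, with 11.83 as the highest value of WT in DMSO and 11.87 as the lowest of *tup1Δ* in rapamycin.

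*ANB1* had the same order as *AAC3*, at 11.01 ± 0.29, 11.51 ± 0.30, 12.21 ± 0.03 and 12.57 ± 0.04, with overlap between the WT groups only. *HEM13* split by strain, at 11.91 ± 0.17 and 12.18 ± 0.17 in WT and 13.12 ± 0.04 and 13.16 ± 0.03 in *tup1Δ*, and the groups of one strain overlapped. *HMG2*, *ROX1* and *MOT3* spanned less than 1 log2 unit, with the lowest group mean at 12.47 ± 0.17, 13.69 ± 0.10 and 11.62 ± 0.34 and the highest at 13.11 ± 0.00156, 14.17 ± 0.04 and 12.31 ± 0.07.

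Of the 6 hypoxic genes, 5 have an aerobic partner that encodes the same kind of protein, and each pair was compared as the change of the hypoxic gene minus that of its partner. The partners are *HYP2* (YEL034W) for *ANB1*, *CYC1* (YJR048W) for *CYC7*, *COX5A* (YNL052W) for *COX5B*, *PET9* (YBL030C) for *AAC3* and *HMG1* (YML075C) for *HMG2*. *AAC1* (YMR056C), a further ADP/ATP carrier gene, was measured with them. None of these 6 aerobic genes was called in any of the comparisons, where *CYC1* in WT in rapamycin came nearest with a rise of 0.81 (adjusted p = 2.58e-06 from limma). The paralogs are alike in sequence, and the probe sequences were not used here, so signal that a probe shares between partners cannot be told apart. Over the pairs 20 ratios were compared, and their exact permutation p-values are not adjusted. A Benjamini-Hochberg adjustment over these ratios had been planned and was not made.

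Between the strains in DMSO, the hypoxic gene moved up relative to its partner by 1.66 for *CYC7*, 0.88 for *ANB1* and 0.63 for *AAC3*, each with no overlap between the strains (exact permutation p = 0.0667). *COX5B* moved the other way, by -0.25 (exact permutation p = 0.0667), and *COX5A* itself rose by 0.30 (adjusted p = 0.0341 from limma). The *COX5A* values were 10.90, 10.76, 10.57 and 10.55 in WT and 11.01 and 10.98 in *tup1Δ*. The mean of WT replicates 3 and 4 minus that of replicates 1 and 2 was -0.27, close in size to the rise. For *HMG2* and *HMG1* the difference was 0.19 (exact permutation p = 0.2). *CYC1* had values of 10.29, 10.27, 10.11 and 10.11 in WT and 10.19 and 10.35 in *tup1Δ*, so the strains overlapped for the aerobic cytochrome c gene while they were far apart for the hypoxic one. *CYC1* lies next to *ANB1* on chromosome X, and its log2 fold change of 0.07 (adjusted p = 0.574 from limma) compares with 1.06 for *ANB1*.

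In rapamycin the same ratios were 3.00 for *CYC7*, 1.13 for *ANB1*, 1.09 for *AAC3*, -0.45 for *COX5B* and -0.01 for *HMG2*. In this comparison *CYC1* fell by 0.26 (adjusted p = 0.0419 from limma) and *COX5A* rose by 0.55 (adjusted p = 0.00125 from limma). The strains overlapped only in the ratio of *HMG2* to *HMG1*.

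Within WT, rapamycin raised *CYC7* by 0.70 and *CYC1* by 0.81, and their ratio changed by -0.11 (exact permutation p = 0.171). *COX5B* moved up by 1.35 relative to *COX5A* and *HMG2* by 0.66 relative to *HMG1*, while *AAC3* moved down by -1.01 relative to *PET9*, each with an exact permutation p of 0.0286 and no overlap. *ANB1* and *HYP2* both fell, and their ratio changed by -0.22 (exact permutation p = 0.229). In *tup1Δ* the ratio changed by 1.23 for *CYC7*, 1.15 for *COX5B*, 0.46 for *HMG2*, 0.03 for *ANB1* and -0.55 for *AAC3*, with the smallest exact p that 2 arrays against 2 allow, 0.333, for each.

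**Figure D4:**
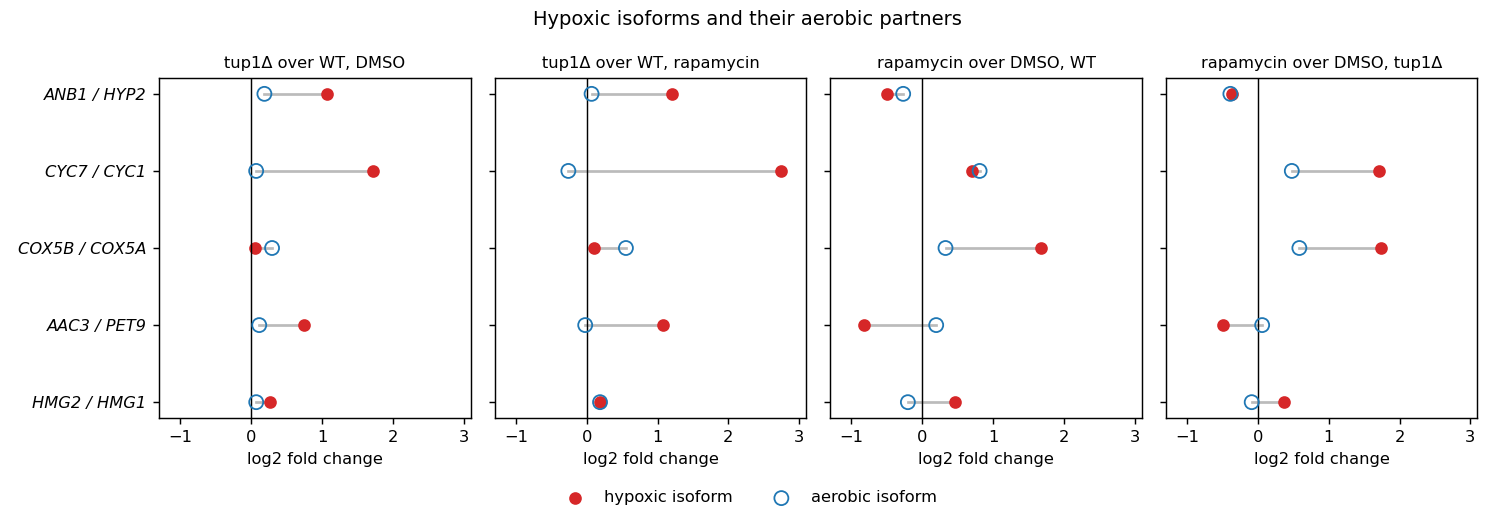
Log2 fold change (x axis) of each hypoxic gene (filled) and its aerobic partner (open) in the 4 comparisons, with a line joining the pair. The *CYC7* and *CYC1* points are 1.66 apart between the strains in DMSO and 3.00 apart in rapamycin, and nearly coincide in the rapamycin response of WT.

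Other genes of oxygen and sterol control were counted from the same fit. In DMSO, among 12 other genes known to be raised without oxygen, 3 were called higher in *tup1Δ*: *PDR11*, a sterol uptake transporter, by 1.15, *HES1*, an oxysterol-binding protein, by 1.14, and *FRD1*, a fumarate reductase, by 1.13. Of all genes, 4.13% were called higher. Without the fold threshold, 7 of 12 in this list rose and 2 fell, where 15.3% and 27.3% of all genes did. Against WT replicates 1 and 2 alone, *HES1* (0.83) and *FRD1* (0.96) were not called. *SUT1* and *AUS1* were just under the fold threshold, at 0.98 and 0.95, and crossed it when the median gene was set equal between groups, which brought the count to 5. None of 7 other heme synthesis genes was called, and 3 of them rose. Against WT replicates 1 and 2 alone, the heme synthesis gene *HEM3* was called higher (1.01). None of 21 other ergosterol synthesis genes was called, with 5 up and 5 down. None of 10 other regulators was called, with 2 up and 2 down. The list medians of log2 fold change were 0.26, 0.33, -0.01 and -0.02, beside -0.08 over all genes.

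In rapamycin, *SUT1*, a transcription factor of sterol uptake, was higher in *tup1Δ* by 2.06, *PDR11* by 1.15, *AUS1*, another sterol uptake transporter, by 1.07 and *FRD1* by 1.05, which makes 4 of 12 called, where 4.52% of all genes were. Without WT rapamycin replicate 3 or replicate 4, and against WT replicates 1 and 2 alone, 2 of 12 were called, since *AUS1* (1.00 when rounded, 0.98 and 0.82) and *FRD1* (0.98, 0.98 and 0.84) were then under the fold threshold. *FRD1* was also under it, at 0.97, without *tup1Δ* rapamycin replicate 1. Among the regulators, *HAP4*, the activating subunit of the Hap2/3/4/5 complex that turns on respiratory genes, was called at 1.42, and *UPC2*, an activator of sterol genes, at 1.24. These were 2 of 10, beside the same 4.52% of all genes. None of the other heme or ergosterol genes was called. Without the fold threshold, 6 of 12 of the genes raised without oxygen rose and 2 fell, 2 of 7 heme genes rose, 1 of 21 ergosterol genes rose and 8 fell, and 4 of 10 regulators rose and 1 fell, where 16.2% of all genes rose and 27.5% fell. For *AUS1* the WT replicates in rapamycin divided in 2 pairs, with 12.00 and 11.83 in replicates 1 and 2 and 11.43 and 11.37 in replicates 3 and 4, all below its *tup1Δ* values of 12.74 and 12.72.

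Rapamycin lowered *HEM3*, the porphobilinogen deaminase gene of heme synthesis, by 1.01 in WT (adjusted p = 0.0143 from limma) and by 1.98 in *tup1Δ* (adjusted p = 0.00305 from limma). Its WT values in DMSO were 11.54, 11.12, 12.60 and 12.59, and those in rapamycin were 10.51, 10.88, 11.18 and 11.23, so that the treatments overlapped through DMSO replicate 2. *HEM3* was the 1 of 7 heme genes called lower in each strain, where 7.8% of all genes were in WT and 6.52% in *tup1Δ*. In WT it was not called without WT DMSO replicate 3 (-0.80) or 4 (-0.80) or WT rapamycin replicate 1 (-0.86) or 2 (-0.99), nor with WT replicates 1 and 2 alone (-0.63). The strains did not pass the test of a different response for *HEM3* (-0.97, adjusted p = 0.370 from limma). With WT replicates 1 and 2 as the only WT arrays, *HEM3* was called in this test (-1.35, adjusted p = 0.0219 from limma). *HAP5*, a subunit of the same complex as *HAP4*, was called higher in both strains, at 1.04 in each. It was the 1 of 10 regulators called higher in each strain, where 5.41% of all genes were in WT and 5.34% in *tup1Δ*. It was under the fold threshold in *tup1Δ* without *tup1Δ* rapamycin replicate 2 (0.96), and in WT with replicates 1 and 2 alone (0.93) and when the median gene was set equal between groups (1.00 when rounded). *HAP4* fell in WT without being called (-0.81, adjusted p = 1.30e-05 from limma). With WT replicates 3 and 4 alone, 3 of 10 regulators were called in WT, since *HAP4* (-1.07) and *ECM22* (-1.01) were then called lower. In WT *SUT1* was called lower at -1.44 and *HES1* higher at 1.10, the latter not without WT DMSO replicate 3 (0.99). These were 1 of 12 lower and 1 of 12 higher, where 7.8% and 5.41% of all genes were called. Of the 21 ergosterol genes, 12 rose and 1 fell in WT, and 7 rose and 3 fell in *tup1Δ*, none of them called. Over all genes, 37.8% rose and 28.4% fell in WT, and 29.6% rose and 23.5% fell in *tup1Δ*. The ergosterol list had a median log2 fold change of 0.19 in WT, beside 0.06 over all genes.

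Of the genes in the other lists, *SUT1* was called for a different response in the strains, and *ECM22* and *HAP2* passed the adjusted p only. *SUT1* had values of 11.15, 11.06, 11.17 and 11.16 in WT in DMSO and 9.68, 9.64, 9.72 and 9.76 in WT in rapamycin. In *tup1Δ* they were 12.06 and 12.17 in DMSO and 11.72 and 11.80 in rapamycin. The fall was large and even in WT and small in *tup1Δ*, and the responses differed by 1.08 (SE 0.08, adjusted p = 1.63e-05 from limma). For *SUT1*, unlike *CYC7*, none of the groups was near the low end of the array.

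*ECM22* encodes a sterol regulatory transcription factor related to Upc2. It had values of 10.88, 10.91, 10.76 and 10.79 in WT in DMSO and 10.08, 10.04, 9.78 and 9.76 in WT in rapamycin, against 10.65 and 10.56 in *tup1Δ* in DMSO and 10.68 and 10.64 in *tup1Δ* in rapamycin. It fell by 0.92 in WT (adjusted p = 1.16e-06 from limma), while the treatments overlapped in *tup1Δ*. The responses differed by 0.98 (SE 0.13, adjusted p = 0.00138 from limma), and this difference reached the fold threshold in 4 of the fits that left out 1 array, at up to 1.03. *HAP2*, a DNA-binding subunit of the Hap2/3/4/5 complex, rose by 0.30 in WT and by 0.74 in *tup1Δ*, and the responses differed by 0.44 (SE 0.09, adjusted p = 0.0151 from limma). The strains differed in DMSO, with means of 9.91 in *tup1Δ* and 10.35 in WT (adjusted p = 0.000246 from limma). In rapamycin the means were 10.64 and 10.65 (adjusted p = 0.945 from limma).

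**Figure D5:**
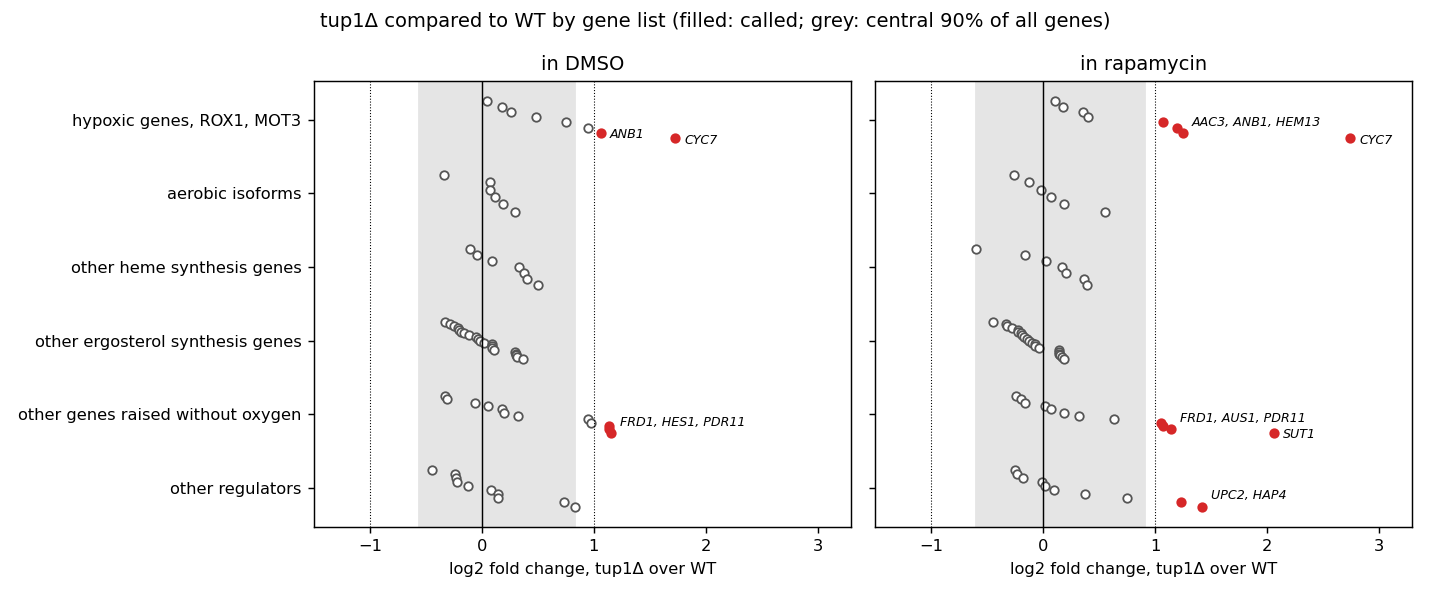
Log2 fold change of *tup1Δ* over WT (x axis) for the genes of 6 lists (y axis) in DMSO and in rapamycin, with 1 point per gene spread vertically for legibility. Filled points are called genes, the grey band holds the central 90% of all genes and dotted lines mark the fold threshold; *CYC7* in rapamycin, at 2.74, is the farthest to the right, followed by *SUT1* at 2.06.

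For the 5 members whose group means spanned at least 1 log2 unit, the genes most alike over the 12 arrays were found outside these 8 genes, as the smallest root mean square (RMS) difference after centring each gene on its own mean. This is a description over arrays that share strains and treatments. *HEM13*, whose own RMS about its mean was 0.542, was closest to *UPC2* (0.108), *SUC2*, the invertase gene (0.145), and *POR2*, a mitochondrial porin gene (0.145). *CYC7*, with an RMS of 1.20, was closest to *GIT1*, a glycerophosphoinositol permease gene (0.190), *CSR2*, an arrestin-like adaptor gene (0.219), and *SNO4* (0.238), which has near-identical copies elsewhere and is therefore uncertain. *COX5B*, with an RMS of 0.860, was closest to *ZTA1*, a quinone reductase gene (0.115), *TSA2*, a peroxiredoxin gene (0.130), and *PHR1*, the DNA photolyase gene (0.143).

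*ANB1*, with an RMS of 0.616, was closest to *POG1* (0.121), YAR068W (0.196) and *MAL31*, a maltose permease gene with close copies (0.216). *AAC3*, with an RMS of 0.577, was closest to *SUT2* (0.137), *MXR1*, a methionine sulfoxide reductase gene (0.161), and YNL234W (0.167). Among the 8 genes themselves the nearest neighbour was farther away in each case: *AAC3* for *ANB1* (0.356) and for *HEM13* (0.299), *HEM13* for *AAC3* (0.299) and for *CYC7* (0.834), and *HMG2* for *COX5B* (0.644). The pool of outside genes is far larger than that of the members, so these distances are no test of a shared pattern.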

How the data were processed

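The authors scanned 12 one-color arrays, quantified them with NimbleScan, normalized them by RMA with other arrays of their laboratory, and deposited the result as log2 values, 1 for each gene on each array. Arrays have no read depth, and their number limits the precision. Of 5872 entries, 103 had no value on any array, which left 5769 genes, and 5763 of these had a symbol in an R64 gene table, looked up by ORF name. Groups came from the sample labels. Replicates are separate cultures.

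A mean for each of the 4 groups was fitted on all 12 arrays with limma 3.58.1 (R 4.3.3; 8 residual and 2.80 prior degrees of freedom), with Benjamini-Hochberg adjustment over all genes. Permutation tests were run with SciPy 1.17.1. The fit was tested on simulated data first.

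Genes named are the 8 members, the aerobic isoforms, the genes that check the strains, the called genes of each other list (at most 4 per comparison, those with the largest change), and the 3 genes most alike for members spanning at least 1. *ECM22* and *HAP2* were added after their values were seen. The members and lists were chosen with earlier results of these data known.

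The design text gives the pairing: WT arrays with the same number share a culture. Their deviations from the group means correlated at 0.745, 0.119, 0.531 and 0.535 for replicates 1 to 4, and for *tup1Δ* at 0.0637. A culture block was fixed for the treatment comparisons and random (duplicateCorrelation, consensus 0.378) for the strain comparisons. Alternatives were another quantile normalization, centring, shifting to the median gene, leaving out the dimmest 25% of genes, fitting only the groups compared, an intensity trend with a robust prior, other fold thresholds, only some WT replicates, and leaving out each array in turn. Promoter and protein sequences were not analysed here.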

Additional observations from a re-analysis of the deposited data

Results flagged for a closer look

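By a test of the difference itself, WT and *tup1Δ* responded differently to rapamycin for *CYC7* (1.02 on the log2 scale, adjusted p = 5.83e-05 from limma), for *SUT1* (1.08, adjusted p = 1.63e-05 from limma), for *ECM22* (0.98, adjusted p = 0.00138 from limma) and for *HAP2* (0.44, adjusted p = 0.0151 from limma). *CYC7* rose more in *tup1Δ* than in WT, and both differences between same-numbered *tup1Δ* arrays were above those of all 4 WT cultures. Its WT mean in DMSO, 8.27, was near the low end of the array, and the part of this in the difference was not tested. *SUT1* fell less in *tup1Δ* than in WT, *ECM22* fell in WT and had a log2 fold change of 0.06 in *tup1Δ*, and *HAP2* rose more in *tup1Δ*, from a lower mean in DMSO. No array stood far from the others among the 28 groups of 4 WT arrays examined for the members and the aerobic isoforms, where chance at 1 in 20 gives about 1.4. This check sets the gap at either end of a group against its range. It can hardly flag an array where the WT arrays split in pairs, and the chance value takes the arrays as independent.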

How the results depend on the processing

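Among the members' log2 fold changes under the alternatives, 687 values stayed called or not called, 14 became called (12 of them only because no fold was asked) and 14 were no longer called, and none that passed the adjusted p changed sign. *CYC7* is among the dimmest 25% of genes, and without these the members called went from 2 to 1 for the strains in DMSO, from 2 to 1 for rapamycin in *tup1Δ* and from 1 to 0 for the difference between responses, where the count without a fold threshold also went from 1 to 0. With no fold threshold the counts were 5 for the strains in DMSO, 7 for rapamycin in WT and 4 for rapamycin in *tup1Δ*. With a threshold of 1.5 they were 1 for the strains in DMSO, 1 in rapamycin (4 in the main setting) and 0 for the difference between responses. With only WT replicates 3 and 4, no gene was called for the difference between responses, and 5 passed the adjusted p in place of 1. That fit leaves out the spread between the WT pairs. Leaving out 1 array in turn gave 1 to 2 called for the strains in DMSO, 3 to 4 for the strains in rapamycin, 1 for rapamycin in WT, 2 in *tup1Δ* and 0 to 1 for the difference between responses. The counts at an adjusted p below 0.05 were then 5 to 6, 4 to 6, 6 to 7, 2 to 3 (4 with all arrays; 2 without *tup1Δ* DMSO replicate 1 or rapamycin replicate 2) and 1. With the replicate block, rapamycin in *tup1Δ* gave 6 members at an adjusted p below 0.05 in place of 4, as it did with no block when fewer groups or WT arrays were fitted, and the block changed no other call among the members. For the other lists, 397 counts stayed within 1.5 times and 53 did not. Causes were not tested, apart from the filter and the thresholds, which act by construction. The 2 *tup1Δ* arrays per group, and values near the low end of the array for *CYC7*, set the limits.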
